A study of Mus musculus with 18 samples.

Results

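Mouse livers rich in Saa1 mRNA were compared with livers of the same genotype poor in it, across all other genes measured. Saa1 encodes serum amyloid A1, a plasma protein made by hepatocytes. The 5 HET livers carry 1 intact copy of Otub2, a deubiquitinase gene, the genotype given as OTUB2 +/-, and belong to a knockout study of pancreas and liver. The livers were chosen by their own Saa1 level, in CPM, the count divided by the library's total and multiplied by 1000000. Those over 1000 CPM, HET 2 and HET 3, are called Saa1-high, and those under it, HET 1, HET 4 and HET 5, are called Saa1-low. The sets hold 2 and 3 of the 5 HET livers, in a series of 18 libraries, and the values of a set are always listed in the order of these names. The only other livers are WT 1 and WT 2, of genotype OTUB2 +/+, which carry both copies. All mice were kept under normal conditions and received no treatment that the labels name. Age is not given, nor are sex and day of collection for livers, nor whether each library is a separate animal. The deleted part of Otub2 is not given in the sources used here, and no cell type is named as the site of the deletion.

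The acute-phase response is the change in liver output that follows infection, injury or other inflammation elsewhere in the body. Cytokines of the interleukin-6 and interleukin-1 families act on hepatocytes through the transcription factors STAT3, NF-kB and C/EBP. Positive acute-phase proteins such as serum amyloid A, haptoglobin and orosomucoid then increase in plasma, while albumin, transthyretin and many metabolic enzymes decrease. Saa1 and Saa2 are inducible members of the family in mouse liver, and Saa4 is made constitutively.

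The Saa genes lie side by side on chromosome 7. In GENCODE M21 (mm10), Saa1 spans positions 46740497 to 46742980 on the minus strand and Saa2 spans 46751790 to 46754313 on the plus strand. Saa3 lies at 46711998 to 46715700 and Saa4 at 46727998 to 46732603, both on the minus strand. All are protein-coding. The bases from 250 to 51 before the RefSeq start (GRCm38.p6) are shown for 4 inducible acute-phase genes with a wide separation, so that the near copies Saa1 and Saa2 can be set beside Saa3 and Lcn2, each 5′ to 3′ on the gene's own strand. Capitals mark matches to TTGCNNAA, a form of the C/EBP site, or to the NF-kB consensus, searched on both strands. TTCNNNGAA, a form of the STAT site, was searched in the same way and had no match in these 4 windows.
Saa1, chr7:46743031-46743230, minus strand: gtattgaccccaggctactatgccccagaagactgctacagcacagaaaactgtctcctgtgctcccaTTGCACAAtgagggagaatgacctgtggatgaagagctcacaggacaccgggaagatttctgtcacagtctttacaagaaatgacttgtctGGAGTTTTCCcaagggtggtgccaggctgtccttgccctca
Saa2, chr7:46751583-46751782, plus strand: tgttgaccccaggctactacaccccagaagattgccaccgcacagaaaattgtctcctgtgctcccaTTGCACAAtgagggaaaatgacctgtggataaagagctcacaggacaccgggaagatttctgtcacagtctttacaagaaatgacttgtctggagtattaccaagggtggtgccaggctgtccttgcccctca
Saa3, chr7:46715727-46715926, minus strand: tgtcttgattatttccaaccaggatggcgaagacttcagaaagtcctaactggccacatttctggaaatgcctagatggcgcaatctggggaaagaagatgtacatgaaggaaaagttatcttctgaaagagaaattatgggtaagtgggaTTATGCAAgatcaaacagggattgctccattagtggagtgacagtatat
Lcn2, chr2:32387790-32387989, minus strand: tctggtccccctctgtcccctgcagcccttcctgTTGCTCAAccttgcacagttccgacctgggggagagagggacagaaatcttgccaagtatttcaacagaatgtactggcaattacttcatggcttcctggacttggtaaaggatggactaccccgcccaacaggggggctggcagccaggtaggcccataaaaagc
The Saa1 and Saa2 windows were identical at 188 of 201 aligned positions, 93.5%, and Saa1 and Saa3 at 49.1%. The first capitals of Saa1 and those of Saa2 spell the same C/EBP-type match, 182 and 183 bases before the start. The second capitals of Saa1, 91 bases before the start, are the NF-kB match, and the Saa2 window holds no such match. In Saa3 the C/EBP-type match reads on the other strand. Across the 32851 RefSeq promoters, windows of this length held TTGCNNAA in 8.11%, the NF-kB consensus in 7.54% and TTCNNNGAA in 5.76%. Among all genes compared, 4100 had a window, and 8.66% of these held TTGCNNAA, 10.1% the NF-kB consensus and 5.02% TTCNNNGAA. A match is a string of letters and was not tested as a binding site. Windows of other widely separated acute-phase genes, such as Orm2 and Fgl1, are not shown. Part of the Lcn2 window lies inside a longer Lcn2 transcript of GENCODE, so it need not be a promoter of every transcript.

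Saa1 separated the 5 livers into sets with no value near the limit. HET 2 had 3121 Saa1 counts, or 4326 CPM (95% Wilson interval 4177 to 4480.3), and HET 3 had 4024 counts, or 8821 CPM (8554 to 9097). Of the Saa1-low livers, HET 1 had 544 CPM (485 to 609.5), HET 4 had 510.1 CPM (431 to 604) and HET 5 had 77.1 CPM (64.9 to 91.5). The livers just inside and just outside the limit were thus HET 2 and HET 1. WT 1 had 567 CPM and WT 2 had 703 CPM, so both WT livers were also under 1000. Intervals cover counting error only. These values chose the sets, so they and every gene of the same contrast are given as description, with no test.

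The libraries differed in depth. Totals were 721427 and 456180 counts in the Saa1-high livers, 537247, 264660 and 1686234 in the Saa1-low livers and 155201 and 342609 in the WT livers. Otub2 had 0 to 2 counts in each of the 7 livers, so it could not check the labels. All 10 hepatocyte markers had counts, and together they took 10.8% and 10.4% of counts in the Saa1-high, 12.3%, 11.2% and 11.2% in the Saa1-low and 13.1% and 11.5% in the WT livers. The labelled tissue was therefore present in every library. Xist, which marks female cells, had 0 counts in all 7 livers.

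Beyond Saa1, few genes parted the sets by a wide margin. Genes were compared where they had at least 10 counts in 2 or more HET livers. Of these 5216 genes, 390 (7.48%) lay above, meaning that both Saa1-high livers exceeded all 3 Saa1-low livers. Another 744 (14.3%) lay below, and 4082 overlapped. Any choice of 2 livers against 3 separates some genes in each direction. Lying above or below therefore does not by itself tie a gene to Saa1. The gap is the lowest value of the higher set divided by the highest of the lower set, with any value under 3 counts set to 3 counts of its library. A gap of at least 2-fold was found above for 16 genes (0.307%) and below for 37 (0.709%). Only 24 genes above and 45 below had 95% Wilson intervals that did not overlap between any pair of livers across the sets, so for most genes counting error leaves the order of some livers undecided by these intervals. Of the genes above, 304 had a promoter window and 24 of these (7.89%) held TTGCNNAA, against 53 of 608 below (8.72%). The share was 8.66% over all genes compared that had a window. Of the 16 genes above by at least 2-fold 7 had a window, of which 4 held TTGCNNAA and 0 held either of the other motifs. Saa2, Saa3 and Lcn2, whose windows are shown, are among these 4, and Saa1 is left out. Below by at least 2-fold, 1 of 30 held TTGCNNAA. Over all genes compared the other motifs were in 10.1% (NF-kB) and 5.02% (STAT-type), so 7 windows are too few to judge their absence. The filter also let in genes by their high side. Of the genes that passed it, 8 did so through the 2 Saa1-high livers alone, all 8 of them above, and 325 through Saa1-low livers alone, 138 of them below. This held for 0 of the 16 genes above and 24 of the 37 genes below by at least 2-fold. For most of the 37 the filter itself thus favoured higher values in the Saa1-low livers.

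The balance of the 2 directions depended on scaling. With library totals, 34.4% of the separated genes lay above, and the median log2 ratio of Saa1-high over Saa1-low was −0.10 (medians of each set, with 1 CPM added). With the TMM factors of edgeR 567 genes lay above and 552 below, so that 50.7% lay above, and the median log2 ratio was 0.03. With DESeq2 size factors the counts were 560 and 557, or 50.1% above. List counts are therefore given with TMM scaling beside those with library totals wherever they differ. With library totals they are to be read against the shares over all genes, 7.48% above and 14.3% below, since several lists lie near these. List counts with TMM scaling are to be read against its own 567 above and 552 below of 5216 genes.

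**Figure D1:**
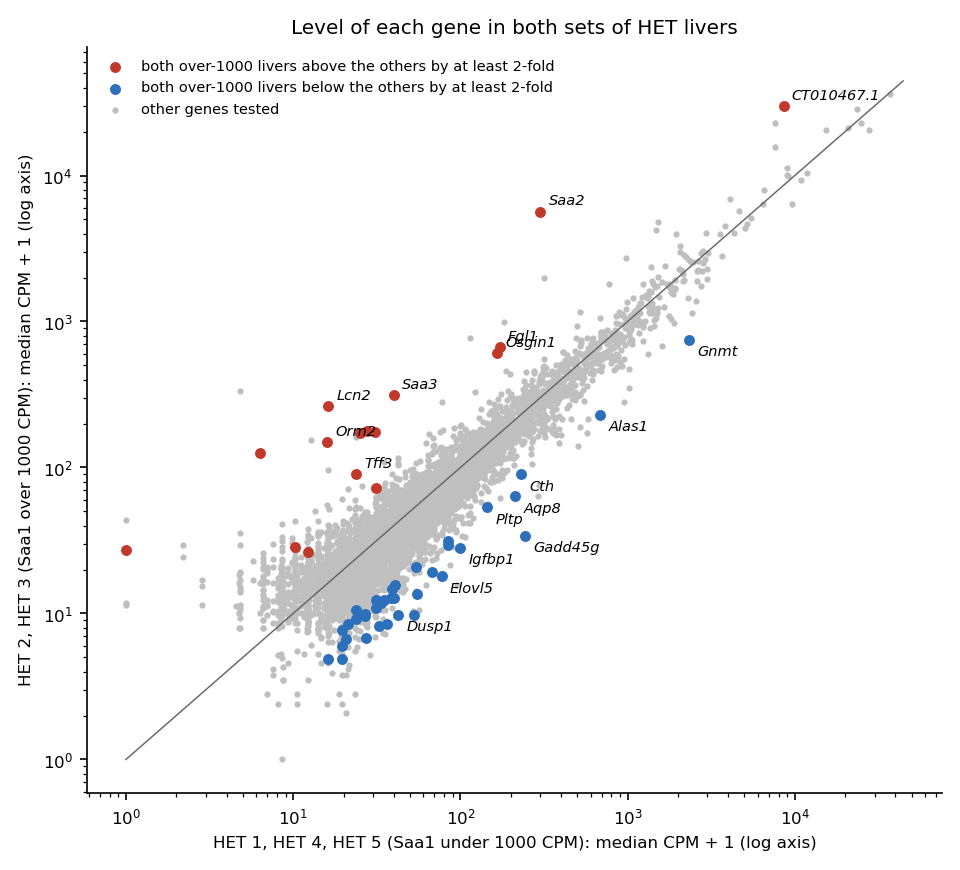
Level of each of the 5216 genes in the Saa1-high livers (vertical axis, median CPM + 1 of HET 2 and HET 3, log scale) against the Saa1-low livers (horizontal axis, median of HET 1, HET 4 and HET 5, log scale), with the line of equal levels. Red points are the 16 genes above by a gap of at least 2-fold, led by Saa2, and blue points the 37 below by at least 2-fold.

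The other serum amyloid genes lay above with Saa1 in all 3 cases. Saa2, the near copy of Saa1, had 1942 and 9391 CPM in the Saa1-high livers, against 299.7, 325 and 24.3 CPM in the Saa1-low livers and 322 and 534 CPM in the WT livers. The smaller Saa1-high value was 5.98 times the largest Saa1-low value, the widest gap above of any gene compared. Saa3, which in mouse is made by macrophages and other cells besides hepatocytes, had 134 and 491 CPM in the Saa1-high, 39.1, 45.3 and 20.8 in the Saa1-low and 64.4 and 117 in the WT livers. HET 3 exceeded HET 2 in each of Saa1, Saa2 and Saa3, and HET 5 was the lowest of the 5 HET livers in each. Saa4 had 456 and 539 CPM in the Saa1-high livers and 251, 404 and 314 CPM in the Saa1-low livers. Its gap was only 1.13, and the Wilson intervals of HET 2 and HET 4 overlapped. The whole family took 0.686% and 1.92% of all counts in the Saa1-high, 0.113%, 0.128% and 0.0436% in the Saa1-low and 0.124% and 0.165% in the WT livers. Saa1 and Saa2 transcripts are 93.9% identical, and 90.1% in the last 200 bases that a 3′ method reads, so their counts may have been divided between them by the authors' counting.

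Positive acute-phase genes outside the Saa family lay more often above than below. Of the 36 genes of that list 29 passed the filter, and of these 13 lay above and 4 below, a median log2 ratio of 0.55 against −0.10 over all genes (with TMM 15 above and 3 below). Lcn2, the iron-siderophore binding protein lipocalin 2, had 81.8 and 441 CPM in the Saa1-high livers, 16.8, 15.1 and 10.7 CPM in the Saa1-low livers and 19.3 and 37.9 CPM in the WT livers. HET 3 stood above HET 2 here as well, and the gap was 4.88. The orosomucoid gene Orm2, which encodes a plasma carrier of lipophilic molecules, had 58.2 and 239 CPM in the Saa1-high, 14.9, 18.9 and 6.52 in the Saa1-low and 19.3 and 14.6 in the WT livers. Orm1 had 3079 and 5364 CPM in the Saa1-high and 1483, 2229 and 1199 CPM in the Saa1-low livers. The last 200 bases of Orm1 and Orm2 are 97.0% identical, so the split between them is uncertain. Fgl1, a liver-secreted fibrinogen-like protein, had 675 and 653 CPM in the Saa1-high livers, against 223, 71.8 and 171 in the Saa1-low livers and 155 and 236 in the WT livers. For Fgl1 the Saa1-high livers were close to each other, unlike those for Saa1, Saa2, Saa3 and Orm2.

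The abundant plasma proteins that bind haemoglobin and haem were above as well. Hp, haptoglobin, had 16829 and 28940.3 CPM in the Saa1-high livers, 7658, 8909.5 and 4308 CPM in the Saa1-low livers and 10393 and 12110.0 CPM in the WT livers. Hpx, hemopexin, had 14862 and 16399 CPM in the Saa1-high, 8182, 7651 and 5121 in the Saa1-low and 7365 and 10248 in the WT livers. Both WT livers lay below both Saa1-high livers for Hp and for Hpx. Lrg1, a leucine-rich plasma glycoprotein, had 1539 and 2100.1 CPM in the Saa1-high and 666, 778 and 801 CPM in the Saa1-low livers. Itih4, an inter-alpha-trypsin inhibitor heavy chain, had 3371 and 4544 CPM in the Saa1-high and 2116, 1953 and 1181 CPM in the Saa1-low livers. The Wilson intervals of the sets were apart for all 4 of these genes, and their gaps ran from 1.59 for Itih4 to 1.92 for Lrg1. The remaining members above, with gaps up to 1.21, were Cfb and C4b of complement, Lbp, which presents bacterial lipopolysaccharide, Itih3 and Serpina10.

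**Figure D2:**
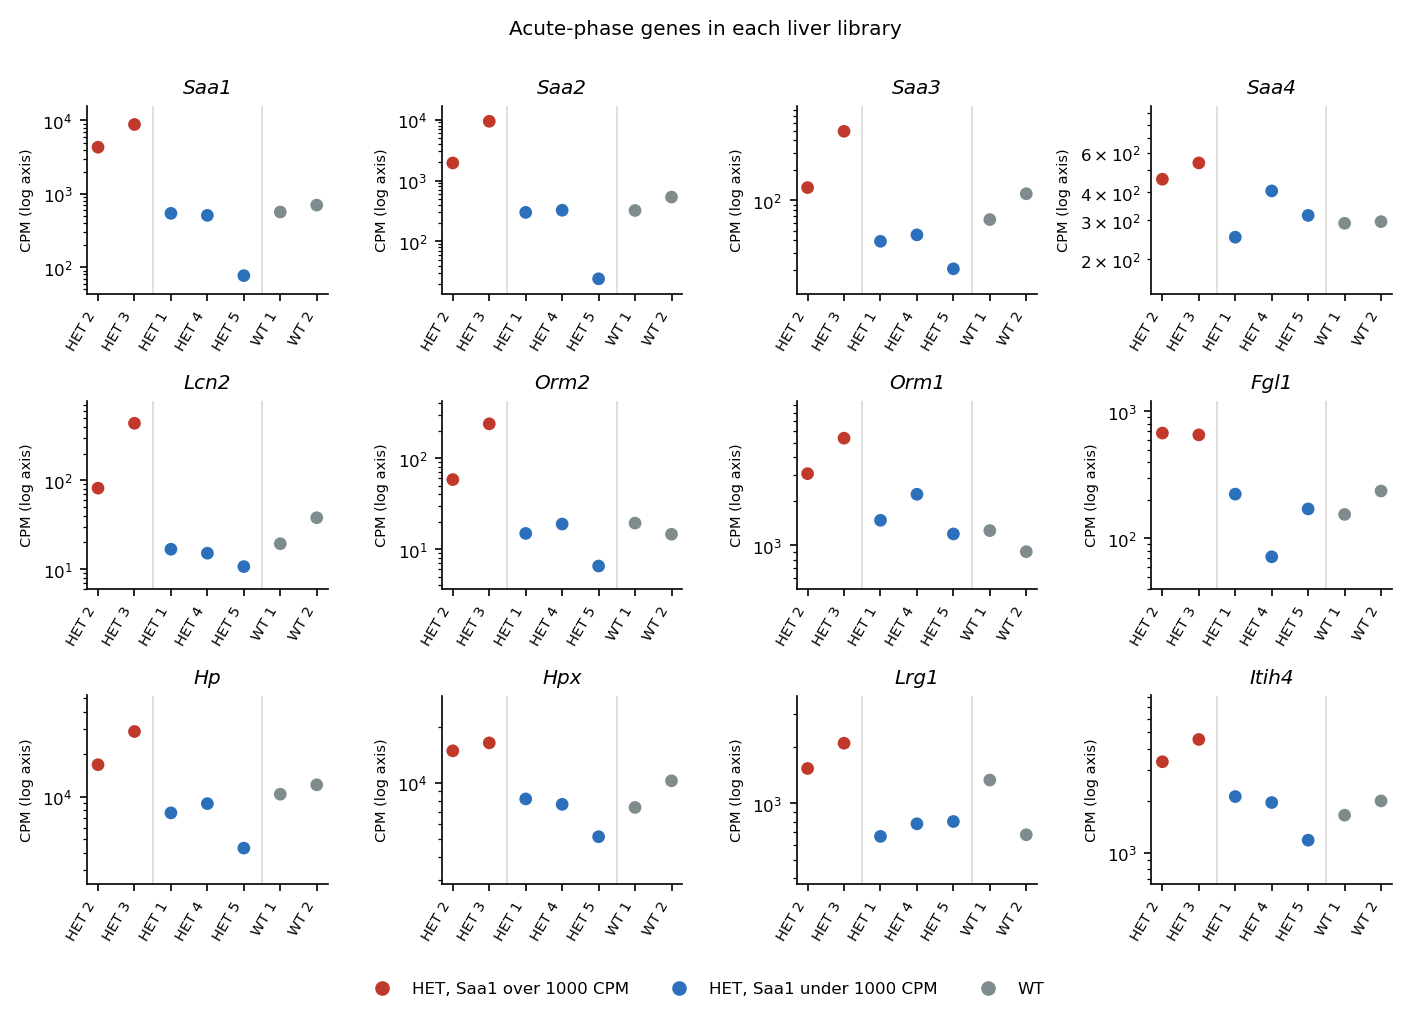
CPM of 12 acute-phase genes in each liver library (log axes), Saa1-high livers in red, Saa1-low livers in blue and WT livers in grey. In every panel both red points lie above all 3 blue points; Saa1 chose the sets, and the gaps of the other 11 genes run from 1.13 for Saa4 to 5.98 for Saa2.

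The acute-phase list did not lie on 1 side as a whole. Hamp encodes hepcidin, the hormone that limits iron export and an interleukin-6 target, and it lay below, at 549 and 800.1 CPM in the Saa1-high and 1569, 1606 and 1803 CPM in the Saa1-low livers. Its Wilson intervals did not overlap between the sets, and the WT livers had 264 and 1667 CPM. Slc39a14, the zinc and iron importer ZIP14, was also below, at 74.9 and 52.6 CPM in the Saa1-high and 115, 113 and 135 CPM in the Saa1-low livers. The other members below were Serpina3m and Steap4, and Steap4 overlapped with TMM scaling. Serpina3n, a protease inhibitor often used as a marker of the response, had 287 and 346 CPM in the Saa1-high and 173, 151 and 301 CPM in the Saa1-low livers. HET 5 exceeded HET 2 for this gene, so the sets overlapped. The fibrinogen chain Fga had 1562 and 1431 CPM in the Saa1-high and 1027, 1330.0 and 2924 CPM in the Saa1-low livers, and Fgg had 1196 and 730.0 CPM in the Saa1-high and 884, 691 and 2098 CPM in the Saa1-low livers. For both chains HET 5, the liver with the least Saa1, was the highest. Crp, the C-reactive protein gene, had 36.0 and 28.5 CPM in the Saa1-high and 57.7, 30.2 and 135 CPM in the Saa1-low livers, again highest in HET 5. Apcs, serum amyloid P and the main acute-phase pentraxin of the mouse, had 36.0 and 11.0 CPM in the Saa1-high and 24.2, 0 and 1.19 CPM in the Saa1-low livers, and its values overlapped.

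Genes of the cytokine signal itself were more often below than above, though most overlapped. Of the 37 genes of the cytokine signalling and feedback list 21 passed the filter, and of these 1 lay above and 6 below (with TMM 1 and 4). The median log2 ratio was −0.25. Without HET 5, 4 of 18 lay above and 6 below, with a median of −0.04, so the lean depended in part on that liver. The member above was Cebpa, a hepatocyte C/EBP factor, at 1016 and 1210.0 CPM in the Saa1-high and 906, 918 and 678 CPM in the Saa1-low livers. Gadd45g, a stress-inducible growth arrest gene, had 29.1 and 37.3 CPM in the Saa1-high, 244, 351 and 109 CPM in the Saa1-low and 213 and 93.4 CPM in the WT livers. Its gap of 2.91 was among the widest below. Jun, a component of the AP-1 factor, had 22.2 and 17.5 CPM in the Saa1-high and 52.1, 52.9 and 186 CPM in the Saa1-low livers, with HET 5 far above the rest. Pim3, a kinase gene induced by cytokines, had 164 and 179.8 CPM in the Saa1-high and 454, 317 and 247 CPM in the Saa1-low livers. Socs2, a feedback inhibitor of growth hormone signalling, had 16.6 and 24.1 CPM in the Saa1-high and 40.9, 106 and 86.0 CPM in the Saa1-low livers. Stat3 and Junb completed the members below with gaps of 1.04 and 1.01, and both overlapped with TMM scaling.

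Other genes of the same list overlapped between the sets. Socs3, the feedback inhibitor induced by STAT3, had 27.7 and 6.58 CPM in the Saa1-high and 13, 34.0 and 30.2 CPM in the Saa1-low livers. Cebpb had 388 and 434 CPM in the Saa1-high and 463, 374 and 420.5 CPM in the Saa1-low livers. In each case a Saa1-low liver exceeded a Saa1-high liver. Nfkbia, the NF-kB inhibitor induced by NF-kB, had 73.5 and 74.5 CPM in the Saa1-high and 68.9, 64.2 and 122 CPM in the Saa1-low livers, highest in HET 5. The interleukin-6 receptor genes Il6ra and Il6st overlapped too, as did the interleukin-1 receptor gene Il1r1. Lifr, the receptor of leukemia inhibitory factor and outside that list, lay above at 473 and 401 CPM in the Saa1-high and 188, 196 and 216 CPM in the Saa1-low livers, with a gap of 1.85. Of 18 chemokine and cytokine genes, Il1b, Il6, Tnf and Cxcl2 were among 8 with 0 counts in all 7 livers, and only Cxcl12 passed the filter.

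Complement, iron and interferon genes gave smaller differences. Of 37 compared complement and coagulation genes, 6 lay above and 2 below (with TMM 10 and 0), a median log2 ratio of 0.28. C8b, a part of the membrane attack complex, had 473 and 480.1 CPM in the Saa1-high and 285, 325 and 344 CPM in the Saa1-low livers. Vtn, vitronectin, had 6380.4 and 7477 CPM in the Saa1-high and 4117, 5335 and 4005 CPM in the Saa1-low livers. The others above were C1qa, Hc, Serping1 and Serpind1. Of 16 iron-handling genes, 5 lay above and 4 below (with TMM 6 and 3). Those above included Hp, Hpx and Lcn2 already described, and Trf, transferrin, with a gap of only 1.01. Of 11 interferon-stimulated genes, 4 lay above and 0 below. They were Bst2, Ifi27, Irf7 and Psmb8, whose gaps ran from 1.01 for Bst2 to 1.17 for Psmb8. The MHC genes ran the other way, with 0 of 12 above and 4 below (with TMM 1 and 4). H2-Q10, a class I molecule secreted by the liver, had 1966 and 1846 CPM in the Saa1-high and 2959.5, 2320.0 and 2582 CPM in the Saa1-low livers. The class II genes H2-Aa, H2-Ab1 and H2-Eb1, which mark antigen-presenting cells, were the others below.

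Negative acute-phase proteins and other plasma carriers overlapped between the sets, with the exception of transferrin. Of 20 compared members 1 lay above and 0 below, and the median log2 ratio was 0.00 before any allowance for the −0.10 of all genes. Alb, albumin, had 28538 and 12331 CPM in the Saa1-high, 33895, 11112 and 27811 CPM in the Saa1-low and 26746 and 18984 CPM in the WT livers. Ttr, transthyretin, had 10622 and 10246 CPM in the Saa1-high, 10267, 11747 and 17252 CPM in the Saa1-low and 17017 and 13502 CPM in the WT livers. The spread within each set exceeded any difference between the sets for Alb, and HET 5 stood alone as the highest HET liver for Ttr. Apoa1 had 25185 and 32099 CPM in the Saa1-high and 23624, 30182 and 17985 CPM in the Saa1-low livers, which also overlapped.

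Major urinary proteins, carriers of pheromones made in liver under growth hormone and androgen control, were above or overlapping. Of 22 genes 14 passed the filter, and of these 6 lay above and 0 below (with TMM 7 and 0), with a median log2 ratio of 1.08. Without HET 5 the median was 0.46, with 6 above and 1 below, so its size depended on that liver. Mup11 had 1074 and 1254 CPM in the Saa1-high, 516, 589 and 377 CPM in the Saa1-low and 232 and 181 CPM in the WT livers. It was the only member whose Wilson intervals were apart. Mup18 had 2846 and 2556 CPM in the Saa1-high, 972, 2528 and 388 CPM in the Saa1-low and 122 and 201 CPM in the WT livers. HET 4 came within a factor of 1.01 of HET 3 for this gene, so the separation rests on a very small gap. Mup genes are near-identical copies, and reads may have been divided among them. The growth hormone axis had 2 of 12 members above and 5 below. Igfbp2, an IGF-binding protein, was above, at 2569 and 2139.5 CPM in the Saa1-high and 1686, 1372 and 946 CPM in the Saa1-low livers. Igfbp1, a binding protein induced in fasting, was below, at 30.5 and 24.1 CPM in the Saa1-high, 132, 86.9 and 98.4 CPM in the Saa1-low and 38.7 and 108 CPM in the WT livers. Cish, Socs2, Stat5b and Onecut1, all acting in or downstream of growth hormone signalling, were the others below.

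Cholesterol synthesis and lipogenesis genes had the largest share below of the lists with at least 10 compared members, with library totals though not with TMM scaling. Of 35 genes 29 passed the filter, and of these 1 lay above and 16 below (with TMM 1 and 11), with a median log2 ratio of −0.90. Fasn, fatty acid synthase, had 164 and 210.4 CPM in the Saa1-high, 516, 571 and 390.2 CPM in the Saa1-low and 522 and 519.5 CPM in the WT livers. Hmgcs1, an early enzyme of cholesterol synthesis, had 170.5 and 195 CPM in the Saa1-high, 683, 340.1 and 387 CPM in the Saa1-low and 361 and 309 CPM in the WT livers. Both WT livers exceeded both Saa1-high livers for each gene. Scd1, the stearoyl-CoA desaturase, had 279 and 294 CPM in the Saa1-high, 1541, 548 and 456 CPM in the Saa1-low and 735 and 683 CPM in the WT livers, and HET 1 was far above the others. Elovl5, an elongase of polyunsaturated fatty acids, had 20.8 and 13.2 CPM in the Saa1-high and 76.3, 68.0 and 110.3 CPM in the Saa1-low livers, a gap of 3.27. These 4 genes were those of the list with Wilson intervals apart. Acly, Elovl6 and Sc5d were below with gaps of 1.72, 1.82 and 1.84 at lower counts. The regulator Srebf1 overlapped, at 213 and 237 CPM in the Saa1-high and 299.7, 295 and 154 CPM in the Saa1-low livers. Insig1, a target of the SREBP2 pathway, lay below with library totals and overlapped with TMM scaling.

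Enzymes of amino acid breakdown were also more often below. Of 35 urea cycle and amino acid genes 33 passed the filter, and of these 1 lay above and 11 below (with TMM 1 and 9), with a median log2 ratio of −0.51. Gnmt, glycine N-methyltransferase, had 816 and 679.6 CPM in the Saa1-high, 2336, 1678 and 2330.0 CPM in the Saa1-low and 1572 and 873 CPM in the WT livers. Cth, cystathionine gamma-lyase, had 98.4 and 78.9 CPM in the Saa1-high, 229, 208 and 515 CPM in the Saa1-low and 96.6 and 105 CPM in the WT livers. Bhmt, which remethylates homocysteine, had 261 and 438 CPM in the Saa1-high and 862, 1024 and 2337 CPM in the Saa1-low livers. Cbs and Ahcy, other enzymes of the homocysteine route, were also below, and Ahcy overlapped with TMM scaling. Tat, tyrosine aminotransferase, had 277 and 283 CPM in the Saa1-high, 1204, 453 and 949 CPM in the Saa1-low and 606 and 537 CPM in the WT livers. The urea cycle enzymes Ass1 and Arg1 overlapped between the sets.

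Glucocorticoid-responsive genes had 0 of 13 members above and 6 below, with the same counts under TMM and a median log2 ratio of −0.85. Dusp1, a phosphatase of MAP kinases, had 11.1 and 6.58 CPM in the Saa1-high, 37.2, 41.6 and 109 CPM in the Saa1-low and 32.2 and 35.0 CPM in the WT livers. Its gap was 3.36, but it had only 8 and 3 counts in the Saa1-high livers and passed the filter through the Saa1-low livers alone. Errfi1, an inhibitor of the EGF receptor, had 36.0 and 85.5 CPM in the Saa1-high and 171, 147 and 248 CPM in the Saa1-low livers. Tat and Lpin1, shared with other lists, Zbtb16 and Klf9 were also below. The metallothionein gene Mt2, induced by both glucocorticoids and inflammation, had 211 and 1331 CPM in the Saa1-high, 452, 113 and 56.3 CPM in the Saa1-low and 148 and 712 CPM in the WT livers. HET 3 was by far the highest HET liver, but HET 2 lay inside the range of the Saa1-low livers, so the sets overlapped. Of 14 glucose and glycogen genes 1 lay above and 5 below (with TMM 1 and 4). Pklr, liver pyruvate kinase, had 168 and 195 CPM in the Saa1-high and 369, 363 and 311 CPM in the Saa1-low livers, with intervals apart. G6pc, glucose-6-phosphatase, had 25 and 19.7 CPM in the Saa1-high and 67.0, 34.0 and 209 CPM in the Saa1-low livers. Pck1, the gluconeogenic enzyme, overlapped.

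**Figure D3:**
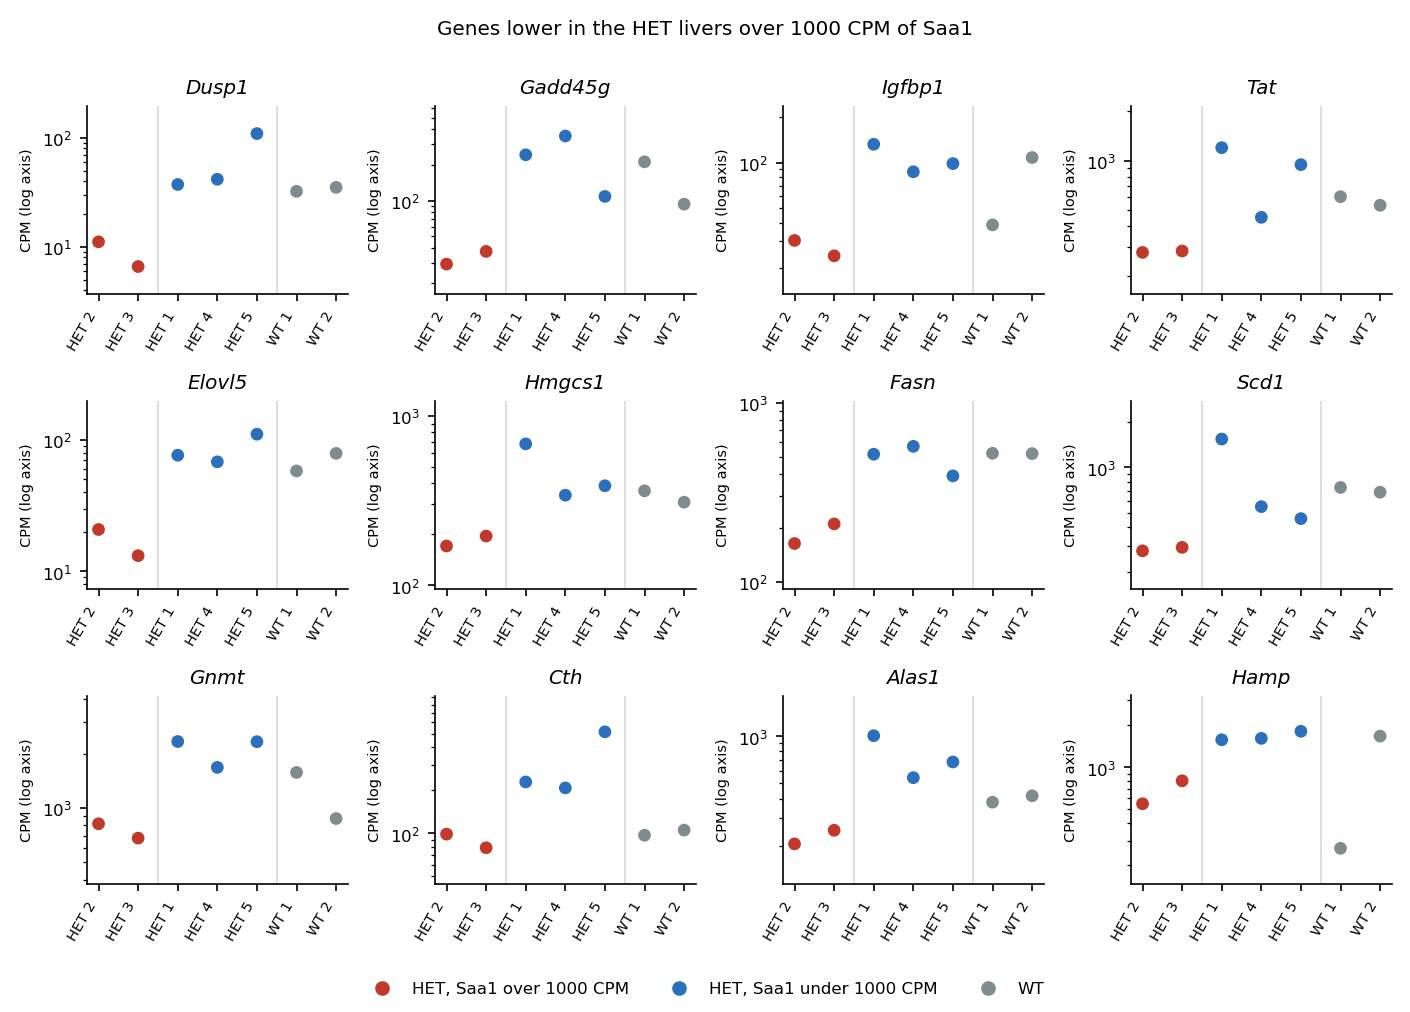
CPM of 12 genes that lay below, in each liver library (log axes), Saa1-high livers in red, Saa1-low livers in blue and WT livers in grey. Both red points lie under all 3 blue points in each panel, while the grey WT points fall at different heights, such as 264 and 1667 CPM for Hamp.

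Detoxifying and bile acid genes were compared by family. Of 22 compared cytochrome P450 genes 2 lay above and 3 below, near the shares over all genes, 7.48% above and 14.3% below. Cyp2e1 had 4519 and 4191 CPM in the Saa1-high and 5020.0, 4904 and 7016 CPM in the Saa1-low livers. Of 19 conjugating enzymes 1 lay above and 7 below (with TMM 1 and 6). Gsta3, a glutathione transferase, had 572 and 368 CPM in the Saa1-high and 1022, 657 and 1712 CPM in the Saa1-low livers. Alas1, the rate-limiting enzyme of haem synthesis, which feeds the cytochromes, had 207 and 252 CPM in the Saa1-high, 1005, 544 and 684 CPM in the Saa1-low and 380.2 and 417 CPM in the WT livers. Its gap was 2.16. Of 19 bile acid genes 0 lay above and 4 below (with TMM 1 and 3), also not far from the shares over all genes. Cyp27a1, of the alternative synthesis route, had 243 and 182 CPM in the Saa1-high and 575, 329 and 696 CPM in the Saa1-low livers. Cyp7a1, the rate-limiting enzyme of the main route, had 18 and 28.5 CPM in the Saa1-high and 87.5, 18.9 and 55.7 CPM in the Saa1-low livers, and overlapped. Of 28 fatty acid oxidation genes 1 lay above and 7 below, but 4 above and 4 below with TMM, so its balance depended on the scaling. Acaa1b, a peroxisomal thiolase, had the widest gap among them, 1.65, at 1142 and 819.9 CPM in the Saa1-high, 1882, 1904 and 2559.6 CPM in the Saa1-low and 2680.4 and 2183 CPM in the WT livers.

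Several of the widest gaps fell outside these lists. Osgin1, an oxidative stress-induced growth inhibitor, had 593 and 620.4 CPM in the Saa1-high, 164, 181 and 148 CPM in the Saa1-low and 393 and 420.3 CPM in the WT livers. Tff3, a trefoil peptide, had 81.8 and 96.5 CPM in the Saa1-high and 14.9, 22.7 and 26.1 CPM in the Saa1-low livers. The WT livers had 12.9 and 315 CPM of Tff3, while those of Osgin1 lay between the sets. For Tff3, WT 2 exceeded all HET livers, but the WT 1 value is only 2 counts and cannot be placed outside the HET range. Tbx3, a transcription factor of liver development, had 65.1 and 76.7 CPM in the Saa1-high and 31.6, 30.2 and 26.1 CPM in the Saa1-low livers. Man1a2, Arl2 and Pllp complete the above genes named by the rule, each under 76.7 CPM in all 5 HET livers. Below, Aqp8, a water channel of hepatocytes, had 70.7 and 54.8 CPM in the Saa1-high, 192, 374 and 211 CPM in the Saa1-low and 335 and 166 CPM in the WT livers. HET 4 was the highest of the 7 livers for this gene. Pltp, the phospholipid transfer protein, had 56.8 and 48.2 CPM in the Saa1-high and 143, 181 and 135 CPM in the Saa1-low livers. Mfsd2a, a transporter of lysophosphatidylcholine induced in fasting, had 30.5 and 26.3 CPM in the Saa1-high and 207, 83.1 and 71.2 CPM in the Saa1-low livers. Chka, choline kinase, had 13.9 and 15.3 CPM in the Saa1-high, 37.2, 45.3 and 39.7 CPM in the Saa1-low and 116 and 117 CPM in the WT livers. All 3 of these lipid-handling genes had both WT livers above both Saa1-high livers. The retinol dehydrogenase gene Rdh11 had 5.54 and 19.7 CPM in the Saa1-high and 54.0, 64.2 and 52.8 CPM in the Saa1-low livers. The WT livers had 12.9 and 11.7 CPM of Rdh11, between the Saa1-high values. These are only 4 and 9 counts in the Saa1-high and 2 and 4 counts in the WT livers, so their order is uncertain. Arid5b, Ubn1, Ebna1bp2 and Pgrmc2 were also below, with gaps from 2.34 for Pgrmc2 to 3.03 for Arid5b. All had under 10 counts in both Saa1-high livers and, like Rdh11, passed the filter through the Saa1-low livers alone. The gap of Ebna1bp2 was computed with the floor of 3 counts in HET 3, where it had 2.

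**Figure D4:**
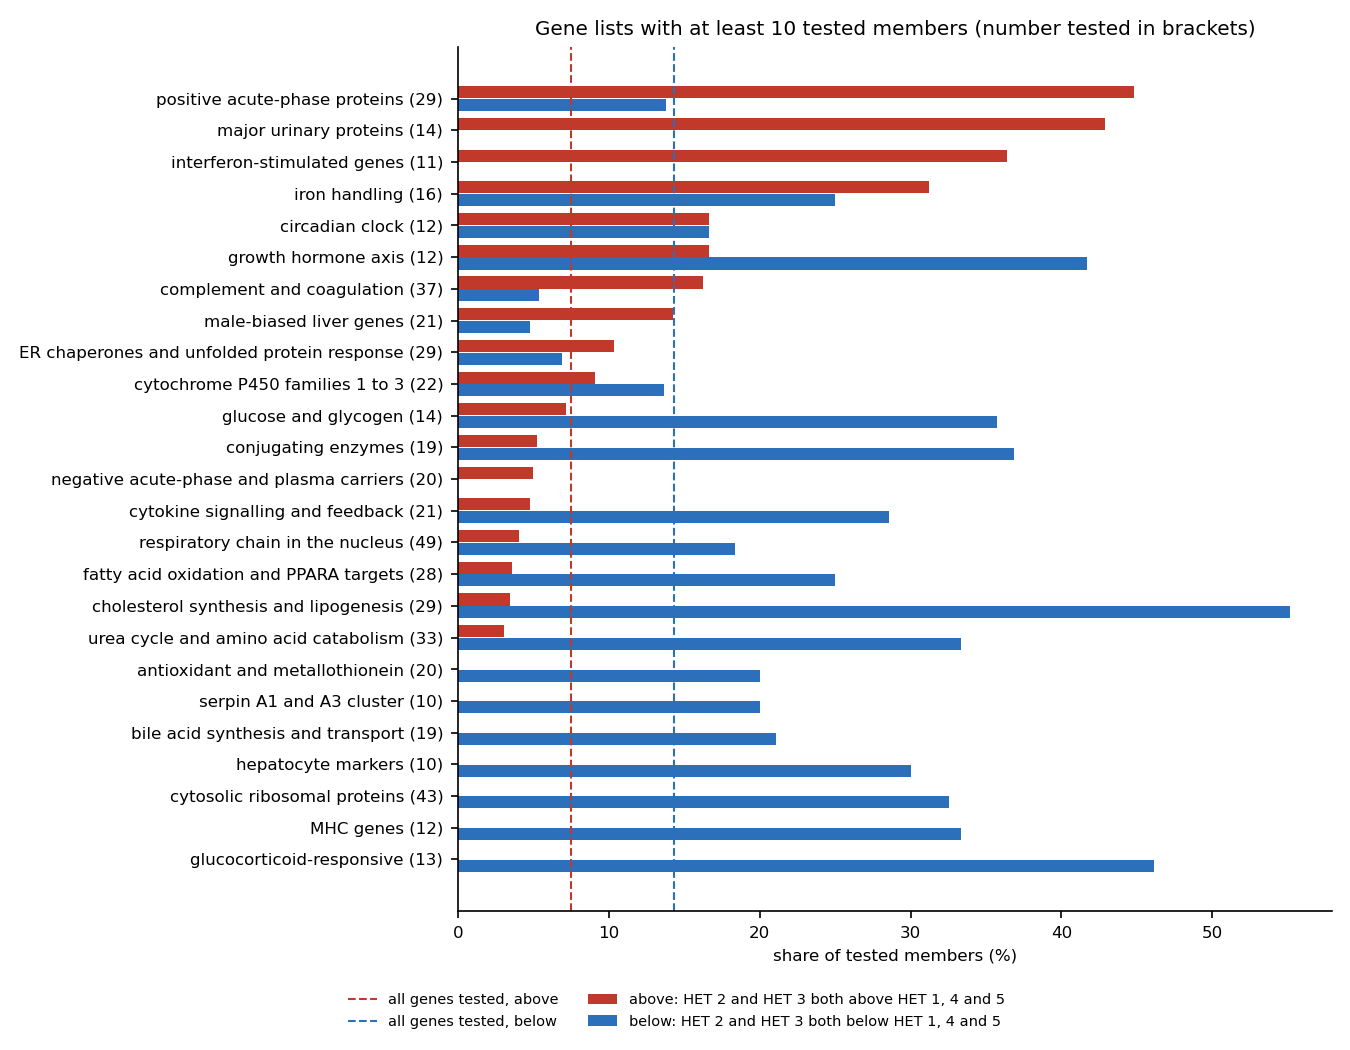
Share of compared members of each gene list that lay above (red) or below (blue) in the Saa1-high livers, for lists with at least 10 compared members; dashed lines are the shares over all 5216 genes, 7.48% above and 14.3% below. Positive acute-phase and major urinary proteins lead the shares above, and cholesterol synthesis and lipogenesis those below, with library totals; with TMM scaling glucocorticoid-responsive genes lead those below.

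RNA composition differed between the sets as well. CT010467.1, annotated as a ribosomal RNA gene (mm10 chromosome 17, 39846353 to 39848827, minus strand), took 3.95% and 2.01% of counts in the Saa1-high, 0.877%, 0.856% and 0.329% in the Saa1-low and 2.54% and 1.17% in the WT livers. Its gap was 2.29, and HET 2, not HET 3, was the highest. Reads assigned to the microRNA genes Mir6236 and Mir6240 were also above, as were those of Lars2, which encodes a mitochondrial leucyl-tRNA synthetase. For each of these genes and for CT010467.1, HET 2 and WT 1 were the highest of all livers and HET 5 the lowest. Whether reads at these loci share a source with CT010467.1 was not tested. Mir6236 had 241 and 105 CPM in the Saa1-high, 29.8, 30.2 and 7.71 CPM in the Saa1-low and 303 and 78.8 CPM in the WT livers. Lars2 had 201 and 140.3 CPM in the Saa1-high, 24.2, 60.5 and 14.8 CPM in the Saa1-low and 251 and 35.0 CPM in the WT livers. WT 1, with Saa1 at 567 CPM, had more CT010467.1 than HET 3. Totals computed without CT010467.1, an alternative chosen after the data were seen, gave 430 genes above and 684 below, with 17 and 33 of them by at least 2-fold. Whether this RNA has a part in the other differences was not tested beyond that.

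Ribosomal protein genes had 0 of 43 members above and 14 below (with TMM 2 and 9), and took 3.00% and 2.80% of counts in the Saa1-high, 3.37%, 3.79% and 3.08% in the Saa1-low and 2.52% and 2.57% in the WT livers. Nuclear genes of the respiratory chain had 2 of 49 above and 9 below (with TMM 3 and 5), not far from the shares over all genes. Transcripts of mitochondrial DNA took 0.184% and 0.163% of counts in the Saa1-high and 0.217%, 0.240% and 0.108% in the Saa1-low livers, with 0 of 8 compared members above or below. Neat1, a nuclear long noncoding RNA, lay below at 15.2 and 39.5 CPM in the Saa1-high and 125, 56.7 and 81.8 CPM in the Saa1-low livers.

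Markers of blood and immune cells were checked beside the acute-phase genes. In bulk tissue, fewer cells of a type and less RNA per cell cannot be told apart. Of 14 neutrophil markers 9 had 0 counts in all 7 livers, S100a8, Ly6g and Mpo among them, and the list summed to 6 and 2 counts in the Saa1-high and 0, 0 and 3 counts in the Saa1-low livers. Kupffer cell and macrophage markers took 0.0821% and 0.0607% of counts in the Saa1-high, 0.0603%, 0.0518% and 0.0412% in the Saa1-low and 0.0831% and 0.0835% in the WT livers. Of 7 compared, 1 lay above and 0 below (with TMM 2 and 0). C1qa had 297 and 263 CPM in the Saa1-high and 147, 246 and 109 CPM in the Saa1-low livers. Clec4f, which defines mouse Kupffer cells, overlapped, at 219 and 123 CPM in the Saa1-high and 194, 117 and 87.8 CPM in the Saa1-low livers. The part of these cells in Saa3 and Lcn2, which macrophages and neutrophils can also make, was not tested. Endothelial markers had 0 of 7 above and 1 below, Stab2, and stellate cell and cholangiocyte markers had none in either direction. Lymphocyte markers had 0 compared members. Erythroid markers overlapped, at 0.438% and 0.153% of counts in the Saa1-high and 1.08%, 0.202% and 0.277% in the Saa1-low livers, highest in HET 1. Of 19 pancreatic acinar markers 12 had 0 counts in all 7 livers.

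**Figure D5:**
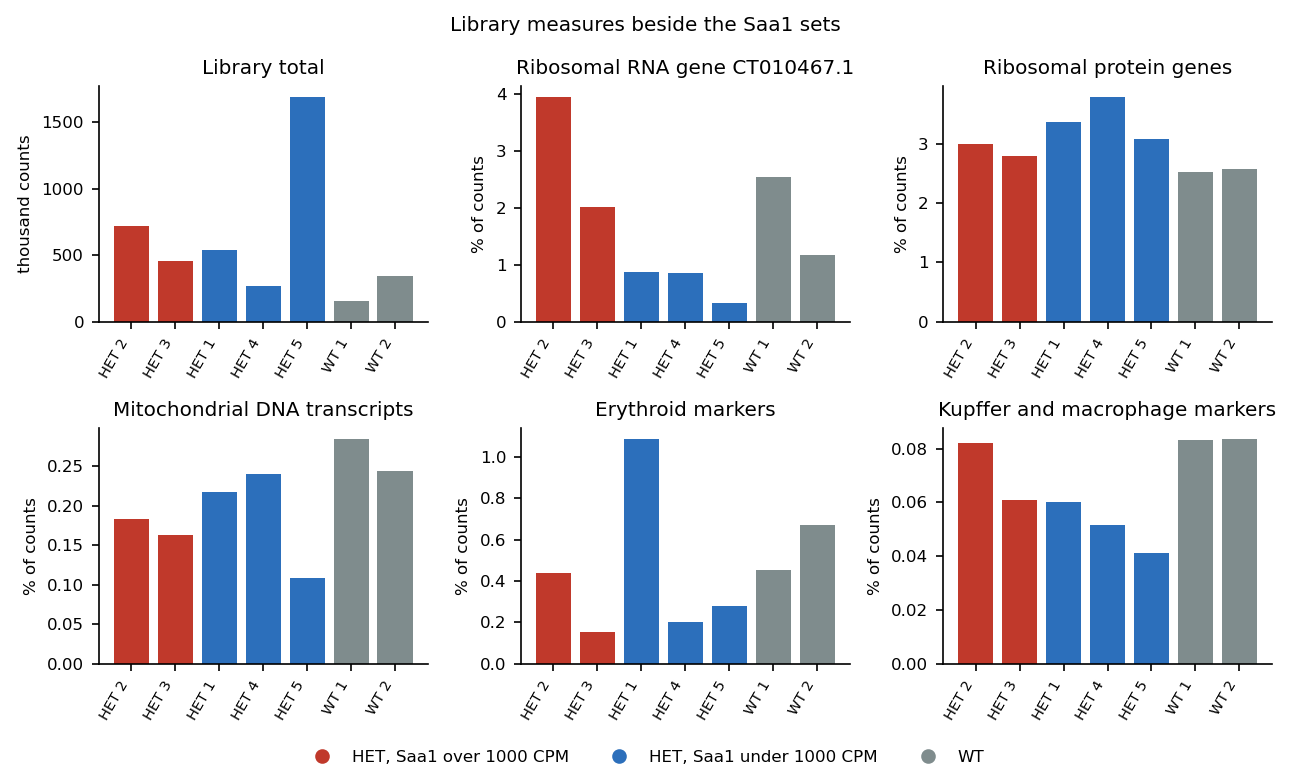
Library total and the share of counts held by 5 RNA groups in each liver library (bars from 0), Saa1-high livers in red, Saa1-low livers in blue and WT livers in grey. CT010467.1 is higher in both red bars than in all 3 blue bars. The macrophage markers are nearly tied, at 0.0607% in HET 3 and 0.0603% in HET 1. The ribosomal protein genes are lower in both red bars by a small margin, 3.00% in HET 2 against 3.08% in HET 5.

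The WT livers were not used to choose the sets, and neither exceeded 1000 CPM of Saa1. They differ from the Saa1-high livers by genotype as well as by Saa1 level, and these cannot be told apart. Of the 16 genes above by at least 2-fold, both WT livers lay below both Saa1-high livers in 9 (56.3%). The share was 42.6% among the 390 genes above and 17.0% among all 5216 genes. Of the 37 genes below by at least 2-fold, both WT livers lay above both Saa1-high livers in 29 (78.4%). That share was 44.5% among the 744 genes below and 23.3% among all genes. These counts follow in part from having chosen the genes as extremes in the same Saa1-high livers, so they are a description. For Saa2, Saa3, Lcn2, Orm2 and Fgl1 both WT livers lay below both Saa1-high livers.

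Genotype itself was the only contrast set by labels, and it was tested in all 7 livers with edgeR's quasi-likelihood test. Of 4803 genes 0 (0%) were higher and 0 (0%) lower in HET than in WT livers at a Benjamini-Hochberg adjusted p under 0.05, with 497 at an unadjusted p under 0.05 and a lowest adjusted p of 0.0681, for Malat1. This nuclear noncoding RNA had 161 and 140.3 CPM in the Saa1-high, 231, 147 and 249.7 CPM in the Saa1-low and 367 and 1635 CPM in the WT livers. DESeq2 called 8 higher and 2 lower. Saa1 averaged 2856 ± 3752 CPM in HET livers (SD, n = 5) and 635 ± 96.5 CPM in WT livers (SD, n = 2). The edgeR log2 difference was 2.34 ± 2.06 (SE, adjusted p = 0.749), with 2 of 5 HET livers above both WT livers and 3 below both. Saa2 gave 2.66 ± 2.46 (adjusted p = 0.763), and Lcn2 gave 2.04 ± 2.17 (adjusted p = 0.804). For all 3 genes the spread among HET livers was larger than the difference from WT livers. Without HET 3, the edgeR value was 1.25 for Saa1 and 0.73 for Saa2, so both values depended on this liver.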

How the data were processed

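RNA of 5 HET and 2 WT livers was sequenced with a bulk adaptation of MARS-seq, which reads the 3′ ends of transcripts, per the labels' protocols. The deposited liver table holds whole-number counts per gene, which its name calls corrected without saying for what. Cutadapt, STAR and mm10 are named in the submitters' processing notes. No version, strand setting or use of molecular identifiers is given in the sources used here. The pancreas table was not used. Library totals were 155201 to 1686234 counts. Intervals (Wilson, 95%) cover counting error only, and MARS-seq counts may hold copies of a molecule.

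CPM were computed from library totals. Between the sets, a gene was compared with at least 10 counts in at least 2 HET livers, and values under 3 counts were set to 3 counts of their library for gaps. Saa1 chose the sets, so set differences carry no p-value. HET and WT livers were compared with edgeR 4.0.16 (limma 3.58.1, R 4.3.3; TMM, quasi-likelihood F test, Benjamini-Hochberg adjustment), with DESeq2 1.42.0 as an alternative. The edgeR fit and the separation of sets were tested on simulated data. Labels do not say whether livers are separate animals, so p-values measure only the spread between these samples. HET and WT livers share the numbers 1 and 2. Deviations of same-numbered livers from their group means had correlations of −0.0232 and −0.0213 over genes. The deviations of 2 WT livers mirror each other, so these values cannot decide whether the numbers are pairs. The labels name no pairing, and the numbers were not taken as pairs. Other alternatives were other scalings and filters, disjoint Wilson intervals and leaving out each liver.

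Genes named are Saa1, Saa2, Otub2, the 15 widest gaps in each direction among genes with at least 10 counts in every liver of the higher set (no predicted genes), up to 4 members per list by mean CPM, and members with a gap of at least 2. Other list members were named after their values were seen. A few genes that this rule or the lists name are not reported here. Genes most like Saa1 by correlation are not reported, since 5 livers are too few. The sets and the 41 gene lists were chosen with earlier results of these data known. Gene positions are from GENCODE M21 (53292 of 55291 symbols matched), and promoter sequences from RefSeq.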

Additional observations from a re-analysis of the deposited data

Results flagged for a closer look

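For 13 of the 88 genes checked, 1 of the 5 HET livers lay far from the other 4, the gap to its nearest neighbour taking more than 0.71 of the whole range. Chance alone gives such a value in about 1 of 20 groups, and many of the genes were named for their extreme values. HET 3 was the high liver for Saa2 (9391 CPM), Saa3 (491 CPM), Lcn2 (441 CPM) and Orm2 (239 CPM). HET 5, the deepest library and the one with the least Saa1, was the high liver for Ttr (17252 CPM), Fga (2924 CPM), Sod1 (2728 CPM), Junb (326 CPM), G6pc (209 CPM), Jun (186 CPM), Crp (135 CPM) and Nfkbia (122 CPM). For Scd1 the high liver was HET 1 (1541 CPM).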

How the results depend on the processing

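The set counts depended on depth filters and on each liver. Genes above and below by at least 2-fold numbered 20 and 23 with TMM scaling and 20 and 22 with DESeq2 size factors. With at least 10 counts in each of the 5 HET livers 173 genes lay above and 416 below, 6 and 9 of them by at least 2-fold. With no filter beyond 1 count 873 lay above and 1470 below. With Wilson intervals apart the counts were 24 above and 45 below, 11 and 12 of them by at least 2-fold. Leaving out 1 HET liver gave 550 to 903 above and 950 to 1464 below, and 27 to 61 above and 39 to 200 below by at least 2-fold. A set of fewer livers is easier to separate. Without HET 2, 903 lay above and 1464 below, without HET 3 877 and 1276, and without HET 4 725 and 1335. Without HET 1, 623 lay above, and without HET 5, 27 lay above by at least 2-fold.

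For HET against WT livers, edgeR called 28 genes higher and 29 lower, 9 of them named by the rule, with no filter, and 1, 5 and 2 with a mean of at least 10 CPM. DESeq2 called 8 higher and 2 lower, 4 of them named. Leaving out 1 liver gave 0 to 4 higher, 0 to 3 lower and 0 to 2 named. The cause of these differences was not tested. With the replicate number as a block, 32 genes were higher, 9 lower and 3 of them named, on 1 residual degree of freedom. Saa1 then gave a log2 difference of 1.44 and Saa2 of 1.07, neither past the threshold. The labels name no pairing, and the correlations of same-numbered livers cannot decide it, so the block is given as an alternative only. Leaving out 1 liver gave Saa1 values of 1.25 to 2.64 and Saa2 values of 0.73 to 3.07. Depth limits low genes most, since 3 counts are 19.3 CPM in WT 1 and 1.78 CPM in HET 5.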

Other observations

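Several gene groups outside inflammation and metabolism were also compared between the sets, as description with no test. Of 12 circadian clock genes 2 lay above and 2 below (with TMM 3 and 1). The hour of collection is not given. Dbp, a clock output gene with a strong daily cycle, had 349 and 386 CPM in the Saa1-high, 337, 223 and 247 CPM in the Saa1-low and 116 and 540.0 CPM in the WT livers, with a gap of only 1.04. Ciart, a clock repressor, had 5.54 and 11.0 CPM in the Saa1-high, 22.3, 15.1 and 13.6 CPM in the Saa1-low and 6.44 and 26.3 CPM in the WT livers. For Dbp the WT livers were farther apart than any pair of HET livers, and the lower WT value of Ciart is 1 count.

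Of 29 genes of endoplasmic reticulum chaperones and the unfolded protein response, 3 lay above and 2 below (with TMM 3 and 0). The shares over all genes were 7.48% above and 14.3% below. Calr, the chaperone calreticulin, had 2241 and 2525 CPM in the Saa1-high and 1673, 2180.2 and 1523 CPM in the Saa1-low livers. Sec61a1, the channel through which secreted proteins enter the reticulum, had 431 and 443 CPM in the Saa1-high and 328, 359 and 252 CPM in the Saa1-low livers. Of 20 antioxidant and metallothionein genes 0 lay above and 4 below (with TMM 1 and 3). Sod1, superoxide dismutase, had 1692 and 1701 CPM in the Saa1-high and 1768, 1919 and 2728 CPM in the Saa1-low livers, and overlapped with TMM scaling. Of 21 male-biased liver genes 3 lay above and 1 below, and 15 of 28 female-biased genes had 0 counts in all 7 livers.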
